A study of Mus musculus with 15 samples.

Results

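The 39 genes described here encode parts of the lysosome in mouse small intestinal epithelium: 24 enzymes and lipid-handling proteins, 5 membrane proteins and channels, 6 subunits of the proton pump and the 4 transcription factors of the MiT/TFE family. They are a list of lysosome genes chosen by name, and earlier results of these data were known when the list was drawn up. All 39 were found among the 24594 rows of the count table of sorted cells, and 37 of the 39 passed the filter on low counts that left 13314 genes to test. Atp6v0d2 and Mitf had too few counts for a test and are described by their counts. Tfec passed the filter through the fetal libraries alone, since it had no adult count, so it had to differ in order to be tested. The same holds for some genes of the other lists, among them Mcoln3, Atp6v0a4, Rragb, Lrp2, Dab2, Laptm5 and C1qa.

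Lysosomes are acidic compartments in which hydrolases break down proteins, sugar chains and lipids that arrive by endocytosis or autophagy. The V-ATPase pumps protons into them, membrane proteins such as the LAMPs line them, and channels release calcium and other ions from them. TFEB and its relatives bind a palindromic E-box in the promoters of many of these genes, and mTORC1 at the lysosome surface keeps TFEB and TFE3 out of the nucleus when nutrients are plentiful. The fetal and suckling small intestine of rodents is known for enterocytes with large lysosomal vacuoles that take up macromolecules from the lumen and digest them inside the cell.

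The fetal group held 3 libraries of C57Bl/6J mice at E16.5, a late embryonic stage, made from live EpCAM+ cells of the proximal intestine that lacked the endothelial marker CD31 and the leukocyte marker CD45. The adult crypt group held 3 libraries of wildtype C57Bl/6J mice, labelled only as adult, made from live EpCAM+ cells that were negative for lineage markers and intermediate for CD24. Those cells came from crypts of the proximal 20% of the small intestine, so villus cells were not their intended source. Neither group was treated, the fetal genotype is not given in the sources used here, and the series' other 9 libraries are organoid cultures and were not used here. Age, sort gate, tissue compartment and sex make-up, as judged from Y-linked counts, differed together, and a library kit is named for the adult group only. Effects of these cannot be told apart. The labels do not say whether the libraries of a group came from separate mice, so p-values reflect only how these libraries vary, which could be technical.

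Total counts ranged from 5795518 to 10538004 per library. The 11 epithelial marker genes summed to 6426 to 6499 CPM (counts after scaling every library to the same total) in the fetal libraries, against 9319 to 9872 CPM in the adult libraries, and 8 of the 11 were lower in fetal cells. Mesenchymal markers summed to 213 to 291 CPM in fetal libraries and 12.6 to 20.7 CPM in adult libraries, with 15 of 17 tested and called higher, all but Vim and Tagln with too few adult counts to be tested otherwise, while Col6a1, Sparc, Lum, Postn and Thy1 were at 0 in all adult libraries. Pancreatic exocrine markers, with Ctrb1 and Cpa1 among them, summed to 882, 1886 and 875 CPM in fetal replicates 1, 2 and 3, against 3.71 to 5.43 CPM in the adult libraries, and 10 of 13 were tested and called higher, all but Cela1 with too few adult counts to be tested otherwise. Erythroid markers summed to 35.8 to 62.6 CPM in fetal libraries and 0.509 to 1.38 CPM in adult libraries, endothelial markers to 2.62 to 10.4 CPM in fetal libraries and 5.53 to 7.97 CPM in adult libraries, and Paneth cell markers to 38.4 to 53.2 CPM in fetal libraries and 168 to 251 CPM in adult libraries. The 7 adult-type enterocyte genes summed to 2260 to 3314 CPM in fetal libraries and 1713 to 2020 CPM in adult libraries, with 3 higher and 4 lower. The mesenchymal, pancreatic, erythroid and adult-type enterocyte sums were higher and the epithelial and Paneth cell sums lower in all fetal libraries. The endothelial sums overlapped, and the part of these lists in the results was not tested. Y-linked genes had counts in every fetal and no adult library. The X-linked Xist had 1111, 584 and 690 CPM in fetal libraries, against 1527, 1191 and 1537 CPM in adult libraries. Each fetal library thus held both Xist and Y-linked counts. Of the 39 genes, 4 (Gla, Lamp2, Atp6ap1 and Tfe3) lie on the X chromosome, and the part of sex in their results was not tested.

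Lysosome genes were on balance more highly expressed in the fetal epithelium. Of the 37 tested, 26 were higher in fetal cells (70.3%), 5 were lower (13.5%) and 6 were not called, with edgeR's quasi-likelihood test and Benjamini-Hochberg adjusted p under 0.05 over all tested genes. Among all 13314 genes, 29.0% were called higher and 25.9% lower. The counts by role given below stand beside these shares. The median log2 fold change, fetal over adult, was 0.61 for the 37 genes and 0.01 for all tested genes. In 27 of the 37 every fetal library stood above every adult library, and in 5 every fetal library stood below, against 32.7% and 29.6% of all tested genes. Tfec, which had to differ in order to be tested, is among the 26 and the 27. The summed level of the 39 genes was 3715 ± 174 CPM in fetal libraries and 2408 ± 60.2 CPM in adult libraries (SD, n = 3 each). In bulk samples, fewer cells of a type and less RNA per cell cannot be told apart.

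**Figure D1:**
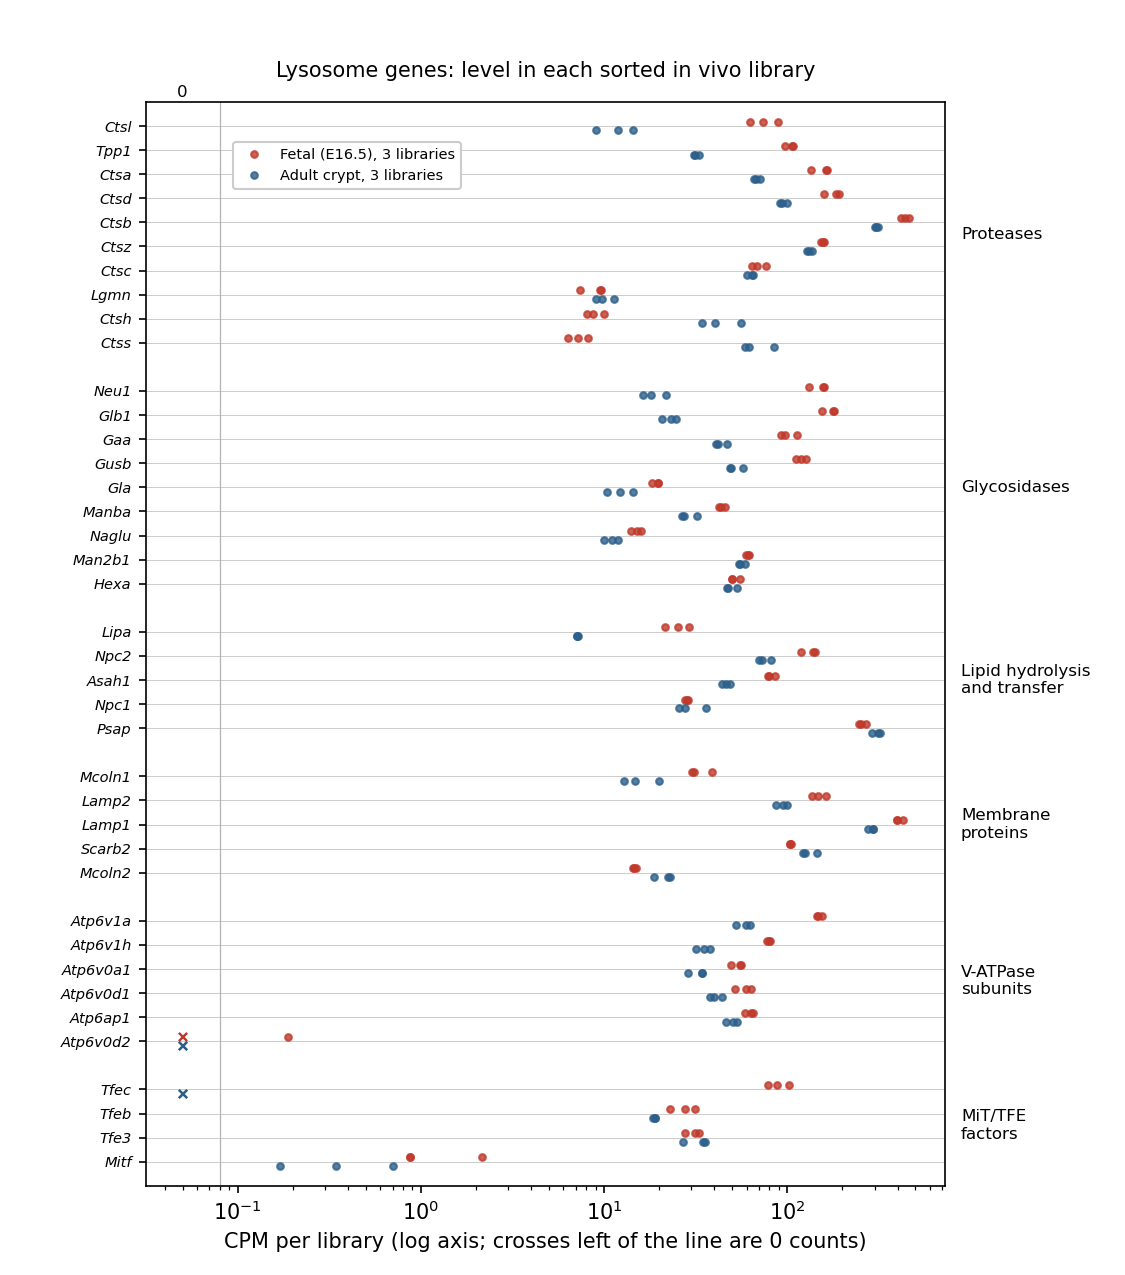
Level of each lysosome gene in each library, in CPM on a log axis, grouped by role. Each point is 1 library (fetal red, upper; adult crypt blue, lower), and crosses left of the line are libraries with 0 counts. The fetal points lie to the right for most genes, Ctss and Ctsh lie to the left in fetal cells, and Tfec has adult crosses only.

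The MiT/TFE transcription factors differed most in Tfec, a family member whose expression is best known from macrophages. Tfec, at chr6:16830927-16898464 (mm10), had 78.7, 88.4 and 102 CPM in the fetal libraries, from 631, 709 and 1085 counts, and 0 counts in each of the 3 adult libraries. No adult read was counted for a gene well covered in each fetal library. With a floor of 3 counts over the adult group, or 0.173 CPM, Tfec was at least 525-fold higher in fetal cells. Its edgeR adjusted p was 5.27e-10, but Tfec was tested through the fetal libraries alone and so had to differ. Leukocyte markers were called in both directions. Their sum was 32.1 to 33.9 CPM in fetal libraries and 35.5 to 47.7 CPM in adult libraries, and 5 of 18 were tested, of which Csf1r (log2 fold change 0.71), C1qa (4.86) and Laptm5 were higher and Cd14 (-3.20) and Itgam (-1.84) lower. Laptm5 had 3 adult counts over the group, and its ratio was 17.1, with an exact 95% counting interval of 5.64 to 84.7. C1qa had 5.24, 9.98 and 6.37 CPM in fetal libraries, against 0.177, 0 and 0.519 CPM in adult libraries. The other 13 had too few counts for a test. Of the 18, 2 (Adgre1 and Tyrobp) were at 0 in all fetal libraries, and 3 were at 0 in all adult libraries. The pan-leukocyte gene Ptprc was at 0.125 to 0.375 CPM in fetal libraries and 0 to 0.864 CPM in adult libraries. The part of leukocytes in the Tfec result was not tested.

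Tfeb, the family's main studied activator of lysosome and autophagy genes, had 31.2, 22.9 and 27.7 CPM in fetal libraries, against 18.9, 18.5 and 19.0 CPM in adult libraries. All fetal libraries were above all adult ones, the fetal ones being the more spread out. The log2 fold change was 0.54 ± 0.14 (SE), with an edgeR adjusted p of 0.00613. Tfe3, which shares many targets with Tfeb, had 27.6, 33.0 and 31.2 CPM in fetal libraries, against 34.5, 35.6 and 27.0 CPM in adult libraries. These ranges overlapped, and Tfe3 was not called (log2 fold change -0.08 ± 0.13, edgeR adjusted p = 0.64). Mitf, the melanocyte regulator that gives the family its name, had 7, 7 and 23 counts in fetal libraries, against 4, 1 and 2 counts in adult libraries, and was not tested.

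Genes were compared per kilobase of merged exons, which can be longer than the transcript expressed, so comparisons between genes depend on this length. On that scale, Tfec was the most abundant family member in fetal cells. Its level was 16.02 ± 2.06 CPM per kb in fetal libraries, against 4.81 ± 0.729 for Tfeb, 3.31 ± 0.301 for Tfe3 and 0.21 ± 0.12 for Mitf in the same fetal libraries (SD, n = 3). In adult libraries, Tfe3 at 3.49 ± 0.508 and Tfeb at 3.32 ± 0.049 CPM per kb did not differ beyond their spread, and Mitf was at 0.0658 ± 0.0442. Tfec thus made up 62.0%, 67.1% and 67.9% of the family's summed level per kb in the fetal libraries, and 0% in the adult libraries. The mean share of Tfeb was 19.9% in fetal and 48.4% in adult libraries, and that of Tfe3 was 13.6% in fetal and 50.6% in adult libraries. Each of these 3 shares had a two-sided exact permutation p of 0.1, the smallest that 3 libraries against 3 can give, so that no share could pass 0.05. With no adult count of Tfec, its share had to separate the groups, and shares of a family are tied to each other. These are therefore not 3 separate results, and the smaller fetal shares of Tfeb and Tfe3 do not mean lower levels of these genes. The share of Mitf was 0.84% in fetal and 0.952% in adult libraries (two-sided exact permutation p = 0.7).

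**Figure D2:**
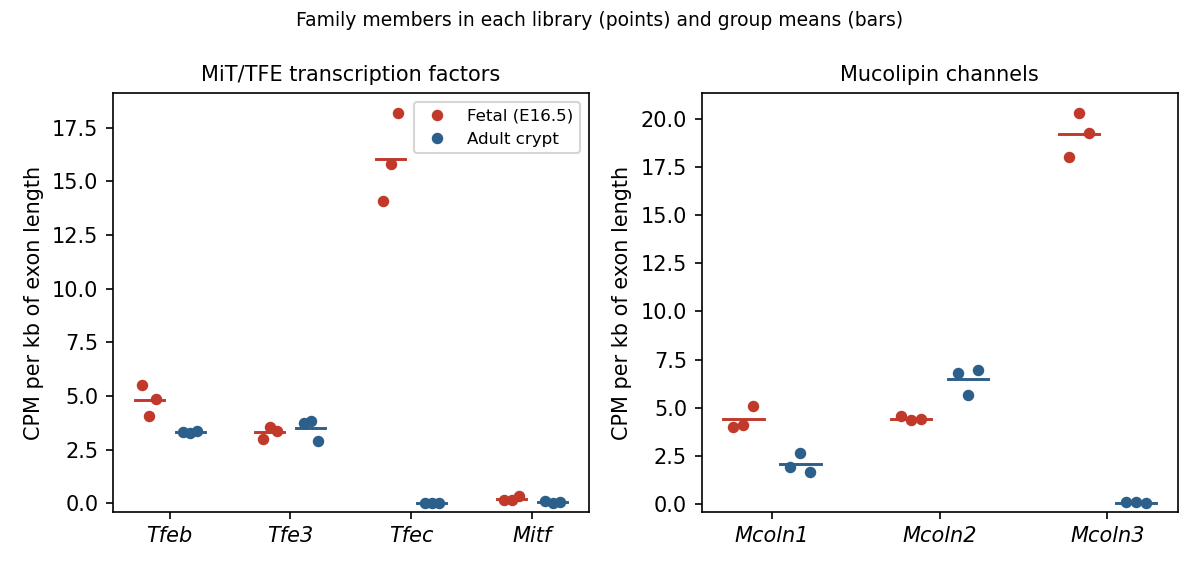
Level of the MiT/TFE transcription factors (left) and the mucolipin channels (right) in each library, in CPM per kb of exon length. Points are libraries (fetal red, left; adult crypt blue, right) and bars are group means. Tfec and Mcoln3 are high in the 3 fetal libraries and at or near 0 in the 3 adult libraries, while Tfe3 overlaps between the groups.

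MiT/TFE proteins recognise the E-box CACGTG, best within the longer palindrome TCACGTGA. RefSeq windows from 250 bases before to 50 after an annotated start (GRCm38.p6) were at hand for 33 of the 39 genes. CACGTG was found in windows of 13 of the 33 (39.4%), against 8.09% of all 27025 genes with a window, or 7.15% of the 32851 windows. TCACGTGA was found in 6 of the 33 (18.2%), against 1.12% of all genes, or 0.974% of windows. The 6 were Ctsa, Ctsd, Gla, Mcoln1, Atp6v0d1 and Atp6v1a, and all 6 were higher in fetal cells, with a median log2 fold change of 0.99. Of the 26 tested genes with a window and no TCACGTGA, 17 were higher, 4 were lower and 5 were not called, with a median of 0.52. Each motif is its own reverse complement, so 1 search covers both strands, and every TCACGTGA holds a CACGTG. Of the 13 genes with CACGTG, 11 were higher, 1 (Mcoln2) was lower and 1 (Lgmn) was not called, with a median log2 fold change of 0.91. Of the 19 tested genes with a window and no CACGTG, 12 were higher, 3 were lower and 4 were not called, with a median of 0.54. Among all tested genes, 29.0% were called higher and 25.9% lower. The differences between genes with and without either motif were not tested. A motif is a description of the sequence and does not show that a factor bound there.

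Stretches of 100 bases around the motif follow for 4 genes whose window holds TCACGTGA, so that the family's recognition sequence can be read. Of the 6 such genes, these 4 had the smallest edgeR adjusted p for fetal against adult. The stretches run 5′ to 3′ on the gene's strand, and capitals mark every CACGTG. The Atp6v1a stretch is chr16:44139338-44139437 (minus strand), the Ctsa stretch chr2:164833714-164833813 (plus strand), the Ctsd stretch chr7:142387873-142387972 (minus strand) and the Mcoln1 stretch chr8:3500427-3500526 (plus strand). The first TCACGTGA begins 132 bases before the start in Atp6v1a, 13 in Ctsa, 99 in Ctsd and 46 in Mcoln1. The starts used for Atp6v1a and Ctsa are alternative ones that lie inside the gene, downstream of its outermost annotated start.
Atp6v1a: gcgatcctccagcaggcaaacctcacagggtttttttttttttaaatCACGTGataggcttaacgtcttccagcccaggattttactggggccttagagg
Ctsa: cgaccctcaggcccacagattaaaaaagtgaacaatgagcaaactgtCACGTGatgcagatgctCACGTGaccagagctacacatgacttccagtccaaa
Ctsd: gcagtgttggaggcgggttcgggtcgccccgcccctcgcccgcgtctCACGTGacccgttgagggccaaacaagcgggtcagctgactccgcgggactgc
Mcoln1: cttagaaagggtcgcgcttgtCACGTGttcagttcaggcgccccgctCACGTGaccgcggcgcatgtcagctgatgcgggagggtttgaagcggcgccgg
In these stretches Ctsa and Mcoln1 each hold 2 copies of CACGTG, and both copies in Ctsa lie within TCACGTGA, whereas in Mcoln1 only 1 does.

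The proton pump was higher in fetal cells in every tested subunit of the list. All 5 tested V-ATPase genes were higher, against 29.0% of all tested genes. Their sum with Atp6v0d2 was 402 ± 15.6 CPM in fetal libraries and 216 ± 6.27 CPM in adult libraries (SD, n = 3 each). Atp6v1a, the catalytic subunit that hydrolyses ATP, had 148, 154 and 146 CPM in fetal libraries, against 59.4, 52.3 and 62.2 CPM in adult libraries. The groups were far apart relative to their spread, with a log2 fold change of 1.36 ± 0.09 and an edgeR adjusted p of 5e-08. Atp6v1h, a regulatory subunit of the same cytosolic sector, had 77.6, 79.3 and 80.0 CPM in fetal libraries, against 35.2, 38.0 and 31.8 CPM in adult libraries (log2 fold change 1.17 ± 0.10, edgeR adjusted p = 4.38e-07), again with no overlap. The membrane-sector subunits Atp6v0a1 and Atp6v0d1 and the accessory subunit Atp6ap1 differed less, with log2 fold changes of 0.72, 0.53 and 0.32. Without fetal replicate 2, Atp6ap1 was no longer called (edgeR adjusted p = 0.0532).

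Atp6v0d2, an alternative d subunit best known from osteoclasts, had 2 counts in fetal replicate 3 and none in the other 5 libraries. Its share of the summed level of both d subunits per kb was 0.0693% on average in fetal and 0% in adult libraries (two-sided exact permutation p = 1.0). The d subunit mRNA was therefore nearly all Atp6v0d1 in both groups at this depth.

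Among the 10 proteases, 6 were higher in fetal cells, 2 were lower and 2 were not called. Among all tested genes, 29.0% were higher and 25.9% lower. The 2 lower proteases showed the largest drops of the whole gene group. Ctsl, a cysteine endopeptidase, had 62.9, 89.4 and 73.4 CPM in fetal libraries, against 11.8, 14.4 and 8.99 CPM in adult libraries. Every fetal library was more than 4 times the highest adult one, and the log2 fold change was 2.68 ± 0.17 (edgeR adjusted p = 3.95e-08). Tpp1, a serine tripeptidyl peptidase, had 97.3, 106 and 108 CPM in fetal libraries, against 31.1, 31.2 and 33.2 CPM in adult libraries, a tight difference within both groups (log2 fold change 1.70 ± 0.09, edgeR adjusted p = 8.54e-09). Ctsd, the main aspartic protease of the lysosome, had 159.5, 192 and 184 CPM in fetal libraries, against 91.4, 99.8 and 93.2 CPM in adult libraries. It was higher by 0.91 ± 0.09 on the log2 scale (edgeR adjusted p = 2.62e-06), with no overlap. Ctsb, another cysteine protease, was at 439 ± 21.4 CPM in fetal libraries and 307 ± 5.49 CPM in adult libraries (SD, n = 3 each; log2 fold change 0.52). Ctsz, a carboxypeptidase, differed by 0.24 ± 0.08.

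Ctss and Ctsh ran the other way. Ctss, a cysteine protease that antigen-presenting cells use to process the invariant chain of MHC class II, had 6.36, 7.23 and 8.15 CPM in fetal libraries, against 58.9, 61.9 and 84.2 CPM in adult libraries. The fetal libraries lay close together near the bottom of the gene group, and adult replicate 3 was the highest. The log2 fold change was -3.22 ± 0.17, with an edgeR adjusted p of 4.79e-09. Ctsh, an aminopeptidase, had 8.11, 8.73 and 9.94 CPM in fetal libraries, against 34.1, 40.5 and 56.2 CPM in adult libraries. Adult replicate 3 was again the highest, the groups did not overlap, and the log2 fold change was -2.28 ± 0.19 (edgeR adjusted p = 3.7e-07). When 1 library at a time was left out, the log2 fold change ended no closer to 0 than -3.04 for Ctss and -2.05 for Ctsh. Ctsc, a dipeptidyl peptidase that activates granule proteases, and Lgmn, an asparaginyl endopeptidase, were not called, with overlapping groups (log2 fold change 0.15 ± 0.10 and -0.18 ± 0.20).

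The glycosidases, which remove sugars from glycoproteins, glycolipids and glycogen, held the largest increases after Tfec. Of 9, 7 were higher, none was lower and 2 were not called, against 29.0% higher and 25.9% lower among all tested genes. The 9 summed to 730.3 ± 30.9 CPM in fetal libraries and 294 ± 14.0 CPM in adult libraries (SD, n = 3 each). Neu1, the lysosomal sialidase, had 131, 157 and 159 CPM in fetal libraries, against 18.0, 16.3 and 21.8 CPM in adult libraries. Glb1, the acid β-galactosidase, had 155, 177 and 179 CPM in fetal libraries, against 23.2, 20.7 and 24.7 CPM in adult libraries. In both genes the lowest fetal library was several times the highest adult one, and the log2 fold changes were 3.00 ± 0.13 for Neu1 and 2.90 ± 0.11 for Glb1 (edgeR adjusted p = 6.98e-10 and 2.18e-10).

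Neu1 and Glb1 proteins are held in a complex by another enzyme, Ctsa, a carboxypeptidase also called the protective protein. Ctsa had 135, 164 and 163 CPM in fetal libraries, against 67.3, 66.2 and 71.1 CPM in adult libraries. The groups did not overlap, and the log2 fold change of 1.18 ± 0.10 (edgeR adjusted p = 3.62e-07) was smaller than those of its partners. Per kb of exon, the fetal levels of the 3 partners were 56.6 ± 4.53 CPM for Glb1, 40.0 ± 4.22 for Neu1 and 32.7 ± 3.42 for Ctsa. In adult libraries Ctsa led, with 14.5 ± 0.54 CPM per kb for Ctsa, 7.6 ± 0.674 for Glb1 and 5.01 ± 0.752 for Neu1 (SD, n = 3 each). The order of the 3 partners depends on merged exon lengths, 4715 bases for Ctsa against 3008 for Glb1 and 3733 for Neu1.

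Gaa, which degrades glycogen, had 96.9, 113 and 93.0 CPM in fetal libraries, against 42.1, 40.7 and 46.8 CPM in adult libraries. Gusb, the β-glucuronidase, had 127, 119.6 and 112 CPM in fetal libraries, against 57.3, 49.5 and 48.6 CPM in adult libraries. Both were about as much higher, by 1.22 ± 0.10 and 1.21 ± 0.10 on the log2 scale (edgeR adjusted p = 5.36e-07 and 2.86e-07), with no overlap. Gla, the α-galactosidase, Manba, the β-mannosidase, and Naglu, an enzyme of heparan sulfate breakdown, were higher by 0.64, 0.61 and 0.45. Hexa, the α-chain of β-hexosaminidase, and Man2b1, the α-mannosidase, were not called, at 0.07 ± 0.10 and 0.11 ± 0.09. The 3 fetal values of Man2b1, 59.7 to 61.5 CPM, nonetheless lay above its adult values of 54.4 to 58.8 CPM.

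**Figure D3:**
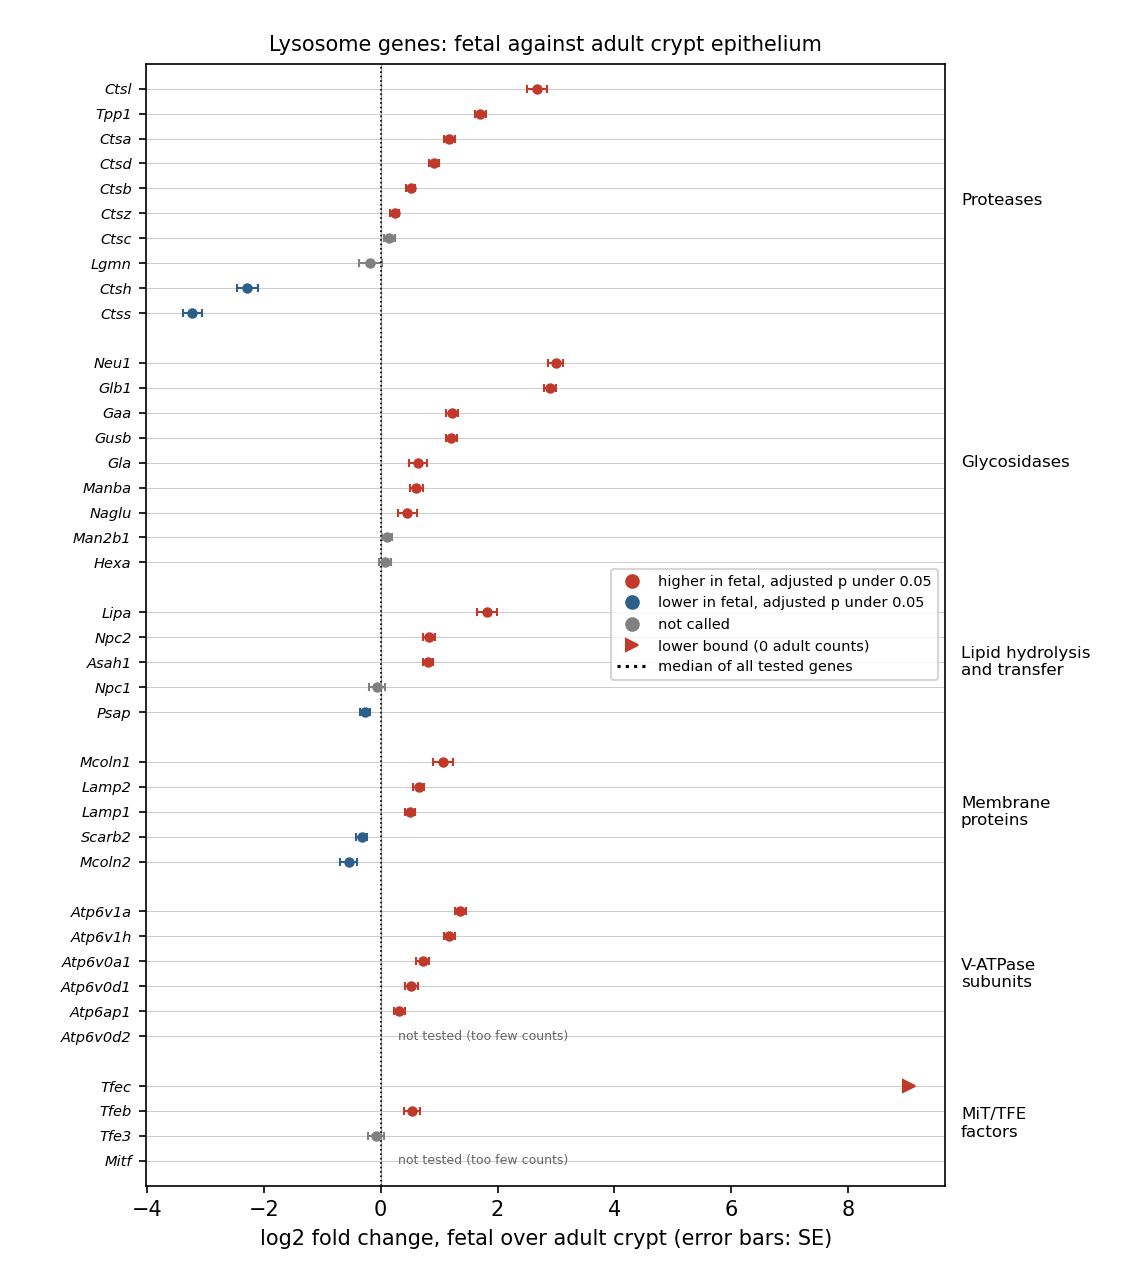
Log2 fold change, fetal over adult crypt, of each lysosome gene by role, with SE as error bars (edgeR, 3 libraries a group). Colours mark the call, the triangle is the lower bound for Tfec, and the dotted line is the median of all tested genes at 0.01. Neu1, Glb1 and Ctsl stand farthest right after Tfec, and Ctss and Ctsh farthest left.

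The 5 genes of lipid hydrolysis and transfer were split, with 3 higher, 1 lower and 1 not called. Lipa, the acid lipase that frees cholesterol from its esters, had 21.6, 25.2 and 29.2 CPM in fetal libraries, against 7.25, 7.13 and 7.09 CPM in adult libraries. It was higher by 1.83 ± 0.17 on the log2 scale (edgeR adjusted p = 1.32e-06), and its 3 adult values were nearly equal. The cholesterol carriers differed from each other, since the soluble Npc2 was at 132 ± 12.2 CPM in fetal libraries and 74.6 ± 5.72 CPM in adult libraries (log2 fold change 0.83), whereas its membrane partner Npc1 was at 28.4 ± 0.532 CPM in fetal libraries and 29.8 ± 5.37 CPM in adult libraries, with overlap and no call (log2 fold change -0.07 ± 0.14). The difference between these 2 changes was not tested. Asah1, the acid ceramidase, was higher by 0.81. Psap, the precursor of the saposins that present sphingolipids to their enzymes, had 247, 271 and 252 CPM in fetal libraries, against 291, 313 and 323 CPM in adult libraries. It was lower by a small margin, at -0.27 ± 0.08 (edgeR adjusted p = 0.013), and was no longer called without fetal replicate 1 (edgeR adjusted p = 0.0594, with a range of 0.0122 to 0.0594 over all alternatives).

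Of the 5 membrane proteins, 3 were higher and 2 lower. The LAMPs, the main glycoproteins of the lysosomal membrane, were both higher. Lamp1 had 399.5, 429.9 and 396 CPM in fetal libraries, against 276, 296 and 292 CPM in adult libraries (log2 fold change 0.50 ± 0.08), and Lamp2 was higher by 0.65 ± 0.09, in each case with no overlap. Scarb2, the receptor that carries β-glucocerebrosidase to the lysosome, stood at 104 ± 0.394 CPM in fetal libraries and 130.4 ± 12.3 CPM in adult libraries (SD, n = 3 each). It was lower in fetal cells (-0.33 ± 0.09 on the log2 scale, edgeR adjusted p = 0.00666).

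The mucolipins are cation channels of endosomes and lysosomes, and their levels differed between the groups in opposite directions. Mcoln1, the calcium channel of late endosomes and lysosomes, had 30.2, 30.9 and 38.6 CPM in fetal libraries, against 14.7, 20.0 and 12.8 CPM in adult libraries (log2 fold change 1.07 ± 0.17, edgeR adjusted p = 0.000145). Mcoln2 had 15.0, 14.3 and 14.5 CPM in fetal libraries, against 22.4, 18.7 and 22.8 CPM in adult libraries (log2 fold change -0.54 ± 0.14, edgeR adjusted p = 0.00603). Neither gene's groups overlapped. The third channel, Mcoln3, which is outside the 39 genes, had 62.5, 70.3 and 66.7 CPM in fetal libraries, against 0.354, 0.339 and 0.173 CPM in adult libraries. Its adult level rests on 5 counts, so it was tested through the fetal libraries alone, with a log2 fold change of 7.77 ± 0.22. Of the 3 channels' summed level per kb, Mcoln3 made up 68.4% in fetal and 0.962% in adult libraries, Mcoln2 15.9% in fetal and 74.8% in adult libraries, and Mcoln1 15.7% in fetal and 24.3% in adult libraries. Each share had a two-sided exact permutation p of 0.1, the smallest possible, so that no share could pass 0.05. With so few adult counts of Mcoln3, its share was bound to separate the groups, and the shares are tied to each other. These are therefore not 3 separate results, and the smaller fetal share of Mcoln1 does not mean a lower level of that gene.

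Compared across genes per kb of exon, the most abundant of the 39 in fetal cells was Lamp1, at 153 ± 6.96 CPM per kb, followed by Ctsz at 108 ± 2.25 and Psap at 93.5 ± 4.57. The next, Ctsd at 75.9 ± 7.19 and Ctsb at 72.5 ± 3.54 in fetal cells, did not differ beyond their spread. In adult crypt cells Psap at 113 ± 5.91 and Lamp1 at 108 ± 3.99 led within each other's spread, followed by Ctsz at 91.5 ± 2.81. Ctsb at 50.7 ± 0.908 and Ctss at 50.3 ± 10.2 CPM per kb came next in adult cells, also within their spread. Ctss was thus among the 5 most abundant lysosome genes per kb in adult crypt cells, and stood at 5.34 ± 0.66 CPM per kb in fetal cells (SD, n = 3 each). These orders rest on merged exon lengths, such as 1358 bases for Ctss and 1441 for Ctsz against 6051 for Ctsb. The transcripts expressed were not determined.

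Other genes of the pathway gave a background to these 39, and their counts stand beside 29.0% higher and 25.9% lower among all tested genes. Of 35 other lysosomal hydrolases, 34 were tested, and 16 were higher, 5 were lower (Arsb, Sgsh, Gm2a, Acp5 and Plbd1) and 13 were not called, with a median log2 fold change of 0.31. The count of lower genes in that list was 2 without fetal replicate 1 or without fetal replicate 2, and 3 without adult replicate 1 or without adult replicate 3. Among those with the smallest p, Galc, a galactosylceramidase, was higher in fetal cells by 1.61 ± 0.17 on the log2 scale and the carboxypeptidase Scpep1 by 1.03 ± 0.11. Of 28 other membrane proteins and channels, 27 were tested, with 11 higher, 2 lower (Cd68 and Sidt2), 14 not called and a median of 0.36. There the count of lower genes was 1 without fetal replicate 1, without fetal replicate 2, without adult replicate 2 and without adult replicate 3. Besides Mcoln3, genes with the smallest p in that list included the sialic acid exporter Slc17a5 (2.19 ± 0.20), the cystine exporter Ctns (1.49 ± 0.16) and the cation channel Tpcn1 (1.03 ± 0.10).

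Of 18 other V-ATPase subunits, 15 were tested, and 10 were higher, none was lower and 5 were not called, with a median of 0.48. Atp6v1b2, the partner of the catalytic subunit, was higher by 1.47 ± 0.09, Atp6v1d by 1.04 ± 0.14 and the accessory Atp6ap2 by 0.50 ± 0.09. Atp6v0a4, the a isoform known from kidney acid-secreting cells, had 4.24, 3.87 and 4.78 CPM in fetal libraries and 0 counts in adult libraries, and was at least 25.1-fold higher.

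Lysosomal enzymes reach the organelle on mannose 6-phosphate receptors, and 13 genes of that sorting step gave 6 higher, 2 lower (Sort1 and Sorl1) and 5 not called, with a median of 0.37. Gga2, an adaptor that loads these receptors into vesicles at the Golgi, had 102, 122 and 99.8 CPM in fetal libraries, against 7.25, 7.13 and 8.13 CPM in adult libraries. Every fetal value was more than 10 times every adult value (log2 fold change 3.84 ± 0.13, edgeR adjusted p = 1.22e-10). Igf2r, the large mannose 6-phosphate receptor, was at 596 ± 46.0 CPM in fetal libraries and 211 ± 15.9 CPM in adult libraries (log2 fold change 1.50), and the retromer subunit Vps26a was higher by 0.86. Sort1, a sorting receptor of another kind, was at 131 ± 7.52 CPM in fetal libraries and 371 ± 49.3 CPM in adult libraries (SD, n = 3 each; log2 fold change -1.50).

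The genes that control TFEB through mTORC1 were for the most part not called, with 9 of 24 higher, 1 lower, 14 not called and a median of 0.19. The lower one was Sesn1, a sestrin that restrains mTORC1, at 18.9 ± 1.57 CPM in fetal libraries and 65.1 ± 9.01 CPM in adult libraries (log2 fold change -1.78). Another sestrin, Sesn3, was higher by 0.80 and Flcn, the activator of RagC and RagD that TFEB retention needs, by 1.23. Rragb, a Rag GTPase, had 80 counts over the fetal libraries and 1 over the adult libraries, a ratio of 51.9 with an exact 95% counting interval of 9.06 to 2077. Autophagy genes showed no shift as a list, with 8 of 28 higher, 4 lower (Becn1, Atg7, Rb1cc1 and Optn), 16 not called and a median of 0.04. Map1lc3b, the LC3 coat protein of autophagosomes, was higher by 0.62 ± 0.09 and the tethering subunit Vps18 by 0.56 ± 0.09, whereas Becn1, of the complex that starts autophagosomes, and the autophagy receptor Optn were lower, with log2 fold changes of -0.67 ± 0.09 and -0.59 ± 0.11.

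The largest median change of the 7 lists was in the genes of suckling-type uptake, which serve or regulate uptake by enterocytes of young rodents. Whether vacuolated enterocytes were present in these proximal samples was not tested. All 7 were higher, with a median of 3.39, though Lrp2 and Dab2 were tested through the fetal libraries alone and so had to differ. The list summed to 663 ± 50.0 CPM in fetal libraries and 71.4 ± 0.892 CPM in adult libraries (SD, n = 3 each). The endocytic receptor gene Lrp2 was at 62.1 ± 6.62 CPM in fetal libraries and Dab2, its adaptor, at 34.0 ± 8.06 CPM, and both had 0 counts in adult libraries, making them at least 355-fold and 195-fold higher. Cubn, the cubilin receptor, was higher by 3.39 ± 0.13 and its membrane anchor Amn by 1.84 ± 0.16. Fcgrt, the neonatal Fc receptor, was higher by 2.21 ± 0.16. The transcription factor Prdm1 was higher by 5.58 ± 0.15. Over all 7 lists, 148 of 153 genes were tested, with 67 higher, 14 lower, 67 not called and a median of 0.31. Among all tested genes, 29.0% were higher and 25.9% lower.

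**Figure D4:**
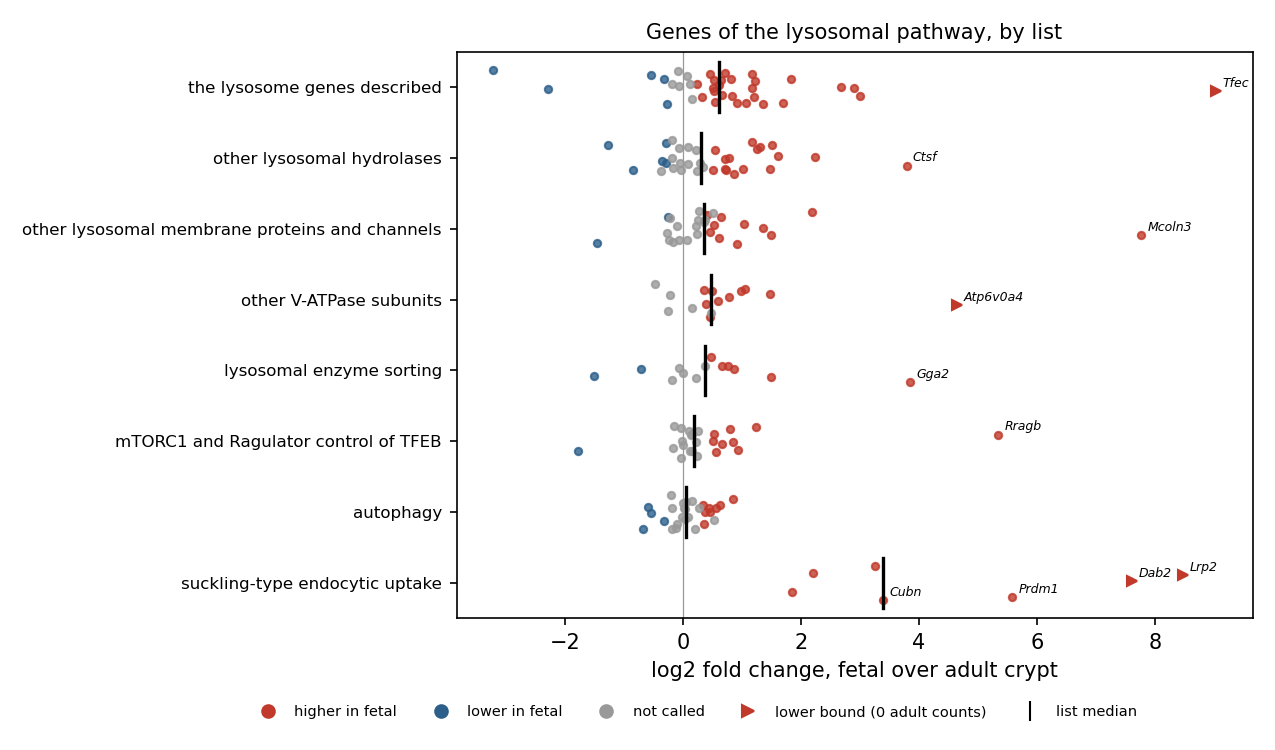
Log2 fold change, fetal over adult crypt, of every tested gene in the lysosome group and in 7 further lists of the pathway (edgeR, 3 libraries a group). Points are genes coloured by call, triangles are lower bounds for genes with 0 adult counts, vertical bars are list medians, and the genes farthest above 0 are named. The medians run from 0.04 in autophagy to 0.61 in the lysosome group, and the uptake list lies apart at 3.39.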

How the data were processed

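The authors deposited counts per gene; the values are whole numbers with a different total in each library, so no normalization was applied to them. Each row carries an Entrez identifier and, except for 7 rows, a symbol, per the file headers. The submitters' processing notes name mm10 and edgeR. For the aligner, counter, annotation and strand setting, the sources used here give nothing, so reads of overlapping genes may be shared. Such overlap covers over 10% of the exon length in 5 of the 39 genes: Ctsd (34.4%), Ctsl (26.8%), Ctsa (17.4%), Ctsb (12.8%) and Hexa (12.8%). Genes named from the other lists exceed 10% too: Itgam (68.7%), Tagln (67.9%), Becn1 (43.9%), Arsb (39.9%), Sgsh (21.6%), Csf1r (15.1%) and Sidt2 (10.4%). Per the labels' protocols, the adult libraries were made with a stranded total RNA kit for low input. The adult protocol text and cell type label differ on how DAPI was used, and the label was followed.

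All 13314 genes left by filterByExpr were fitted together with edgeR 4.0.16 in R 4.3.3: TMM normalization, glmQLFit and glmQLFTest, group means only, Benjamini-Hochberg adjustment over all of them. Rn45s, a ribosomal RNA precursor, was kept and took 7.32% to 10.7% of counts. CPM values use the TMM-scaled library size. The SE is the log2 fold change divided by the square root of F. Values per kb use the merged exons of all transcripts of a gene in GENCODE vM21. Gene positions and promoters are RefSeq's for GRCm38. Floors of 3 counts and intervals cover counting error only. The procedure was tested on simulated data. No 2 libraries of a group agreed within sampling noise (chi-square per degree of freedom 4.83 to 9.44).

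The genes, roles, lists and markers were chosen with earlier results of these data known. Named were all 39 genes, up to 4 called genes of each list by p, and the uptake genes; a few of these are not reported here. Genes making up a count of 5 or fewer were named after their values were seen. Alternatives were relative log expression (RLE) or plain library-size scaling, DESeq2 1.42.0, no low-count filter, removal of Rn45s, a replicate block and leaving out each library.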

Additional observations from a re-analysis of the deposited data

How the results depend on the processing

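Of the 37 tested lysosome genes, 33 kept their call under all 12 alternatives, and none changed direction among those called. The 4 that lost the call in some setting had small changes: Ctsz (edgeR adjusted p up to 0.0652), Naglu (0.0892 with DESeq2, 0.0632 to 0.0845 in 4 omissions), Psap (0.0594) and Atp6ap1 (0.0532). Leaving out 1 library gave 23 to 26 higher and 4 to 5 lower genes. The replicate numbers do not pair the libraries (correlations of same-numbered deviations -0.06, -0.04 and -0.09). With a replicate block, 26 lysosome genes were higher and 5 lower, and 3680 and 3206 of all genes. Atp6v0d2's share ranged from 0% to 0.104% when a library was left out, resting on fetal replicate 3. Of other lysosomal hydrolases, 2 were lower with DESeq2, 3 with library-size scaling and 2 to 4 when a library was left out. Of other membrane proteins, 1 was lower with DESeq2, library-size scaling, no filter or the replicate block, and 1 to 2 when a library was left out. Without fetal replicate 3, 1 other V-ATPase subunit was lower. The median of all genes moved from 0.01 to 0.05 with library-size scaling.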

Other observations

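The antigen-presentation genes that Ctss serves were compared after the values of Ctss had been seen. Cd74, the invariant chain of MHC class II, had 0.249, 0.249 and 0.375 CPM in fetal libraries, against 510, 495 and 821 CPM in adult libraries. H2-Ab1, a class II chain, had 1.37, 1.12 and 0.844 CPM in fetal libraries, against 134, 128 and 227 CPM in adult libraries. Adult replicate 3 stood above the mean of adult replicates 1 and 2 by a factor of 1.63 in Cd74, 1.73 in H2-Ab1, 1.97 in H2-Aa and 1.76 in H2-Eb1, and by a factor of 1.39 in Ctss and 1.50 in Ctsh. Leukocyte markers summed to 47.7 CPM in adult replicate 3 and to 37.8 and 35.5 CPM in adult replicates 1 and 2, and their part in these values was not tested. Counts of the H2 genes are uncertain, because near-identical class II genes can share reads.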
